A study of Mus musculus with 2 samples.

Results

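The genes described here are 10 transcription factors and cofactors of cartilage: the SOX factors Sox9, Sox5, Sox6, Sox4 and Sox11, the RUNX factors Runx1, Runx2 and Runx3, the RUNX partner Cbfb, and Mef2c. Members were all probe sets whose annotation named 1 of these symbols and no other, a rule that uses no measured value. The symbols themselves were chosen with earlier results of these data known. A probe set is a group of short array probes aimed at 1 transcript region. Of the 10 genes, 9 had such probe sets, 42 probe sets in all, among 18193 genes and 45037 probe sets on the array. Runx2, the main RUNX factor of bone and hypertrophic cartilage, had no probe set tied to its name in the annotation used here, and its level was not analysed here.

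RNA of rib chondrocytes from mice 5 days old was hybridised to Affymetrix Mouse Genome 430 2 arrays. The first group was the V156D mutant, mice with a knock-in of that substitution in Matn1, the gene of the cartilage matrix protein matrilin-1, and it had 1 array. The second was wild type, also with 1 array. Both groups share the tissue, the age and the release of cells from dissected ribs with collagenase. The series' design text states that cells of 5 littermates were pooled before extraction, without saying whether that number holds for each genotype, and strain, zygosity and sex were not given in the sources used here. With 1 pool per genotype there is no replicate error, no p-value is given anywhere, so a difference describes these arrays and is not shown to come with the genotype.

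SOX proteins bind DNA through an HMG box, and SOX9 is required for cells to become and remain chondrocytes. SOX5 and SOX6 lack an activation domain of their own and help SOX9 to switch on cartilage genes such as Col2a1 and Acan. SOX4 and SOX11 form another group, active in progenitor cells of the growing skeleton and elsewhere. RUNX proteins bind DNA through a Runt domain, with CBF-beta, the product of Cbfb, as the partner that strengthens binding. RUNX2 and RUNX3 drive the enlargement of chondrocytes into hypertrophic cells, as does MEF2C, a MADS-box factor held back by the deacetylase HDAC4. RUNX1 is best known from blood formation and is also made in cartilage and perichondrium.

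The 3 RUNX genes share a short sequence near their upstream start sites, and it is shown here because few other start sites in the RefSeq promoter table (GRCm38.p6) hold it. That table gives 250 bases before to 50 after each start. In each stretch of 30 bases below, written along the gene's own strand, capitals mark matches to ACCACA, which is the RUNX-bound hexamer TGTGGT read on the opposite strand.
Runx1, chr16:92826025-92826054, minus strand: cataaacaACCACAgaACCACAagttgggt
Runx2, chr17:44814583-44814612, minus strand: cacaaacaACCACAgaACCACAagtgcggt
Runx3, chr4:135120503-135120532, plus strand: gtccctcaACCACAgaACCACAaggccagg

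The matches began 28 and 36 bases after the start site of Runx1, 23 and 31 bases after that of Runx2, and at positions -134 and -126 relative to that of Runx3, the start base being position 0. A pair of matches on 1 strand beginning 8 bases apart occurred in 7 of 32851 promoters of the table, or 0.0213%. The spacing was chosen after these 3 sequences were seen. Of the 7 promoters, 3 were those of the RUNX genes, and that of the predicted gene Gm16225 overlaps the upstream window of Runx3 and holds the same pair. A single match to TGTGGT on either strand is common, being present in 16.8% of the 32851 promoters. It was found at 5 of the 18 start sites that the table lists for the 9 members it holds, the Runx1, Runx2 and Runx3 sites above and 2 of the 6 starts of Sox6. A match is a description of letters and not a measured binding site.

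The core letters of the SOX motif, ACAAT or ATTGT, were less distinctive. They occurred at 6 of the 18 start sites of members, against 31.0% of all promoters in the table. A RUNX match and a SOX match can overlap in the letters ACA, and both would then be counted. Mef2c had 1 such match in the 250 bases before its first start and none at its starts 2 and 3. The other matching starts were those of Sox5, Sox6 and Runx2. The Mef2c stretch is printed only because every Mef2c probe set was higher in the mutant array, so its values picked it. A tie between the match and those values was not tested. Capitals mark the match.
Mef2c, chr13:83503784-83504033, plus strand: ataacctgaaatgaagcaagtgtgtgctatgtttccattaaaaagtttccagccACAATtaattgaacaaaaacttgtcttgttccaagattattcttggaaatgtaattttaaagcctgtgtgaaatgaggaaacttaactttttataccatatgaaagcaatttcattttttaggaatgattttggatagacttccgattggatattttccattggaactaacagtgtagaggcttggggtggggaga

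Each deposited value is the linear intensity of 1 probe set on 1 array. Log2 ratios, mutant over wild type, were taken from them without further scaling. The arrays had median intensities of 55.1 in the mutant and 54.3 in wild type. A signal floor was set at the median of the mean log2 intensity over all probe sets, which came to an intensity of 54.6. By their brightest probe set 11329 genes reached it. The central 95% of log2 ratios of these genes ran from -0.55 to 0.49, with a median of -0.02. Matn1 itself had an intensity of 4340 in the mutant and 4373 in wild type, which does not tell the alleles apart. All 7 chondrocyte markers checked against the label of the cells were at or above the floor, with Col2a1 at 29057 in the mutant and 27997 in wild type. So were all 14 fibroblast, perichondrium and tendon markers, with Col1a2, a chain of collagen I, at 19270 in the mutant and 13342 in wild type, so this check does not single out chondrocytes.

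**Figure D1:**
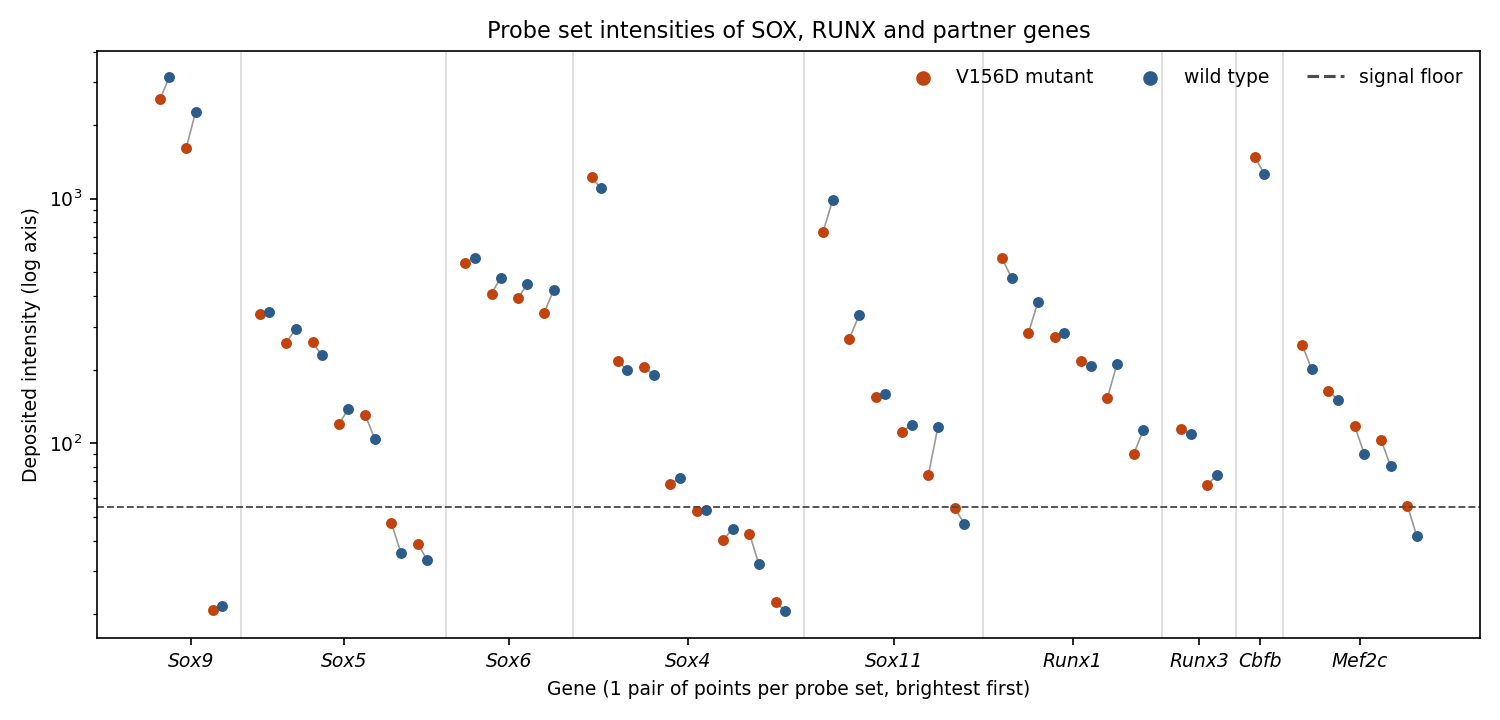
Deposited intensity on a log axis of all 42 member probe sets, with the V156D mutant array left of wild type in each linked pair and the brightest probe set of each gene first. Of the 42, 33 had a mean log2 signal at or above the signal floor (dashed line), and the Sox9 probe set near 21 lies far below the other Sox9 probe sets in both arrays.

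No member differed 1.5-fold between the arrays by its brightest probe set. Sox11 and Sox9 were the lowest in the mutant array, with log2 ratios of -0.43 and -0.29, and Mef2c, Runx1 and Cbfb were the highest, with 0.33, 0.26 and 0.23. The count of 0 of 9 members stands beside 3.72% of all genes at or above the floor that differed at least 1.5-fold in either direction, and 0.909% that differed at least 2-fold. Among the 33 member probe sets at or above the floor, 1 passed 1.5-fold, against 3.59% of 19445 probe sets. A share so close to that of all genes says nothing particular about these factors. By brightest probe set 5 members were above 0 and 4 below, with a median of 0.08, against -0.02 over all genes at or above the floor. The sign of the members' median turned under some settings: it was -0.03 with each gene averaged over its probe sets and -0.07 after dropping probe sets whose names mark possible matches to several transcripts.

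**Figure D2:**
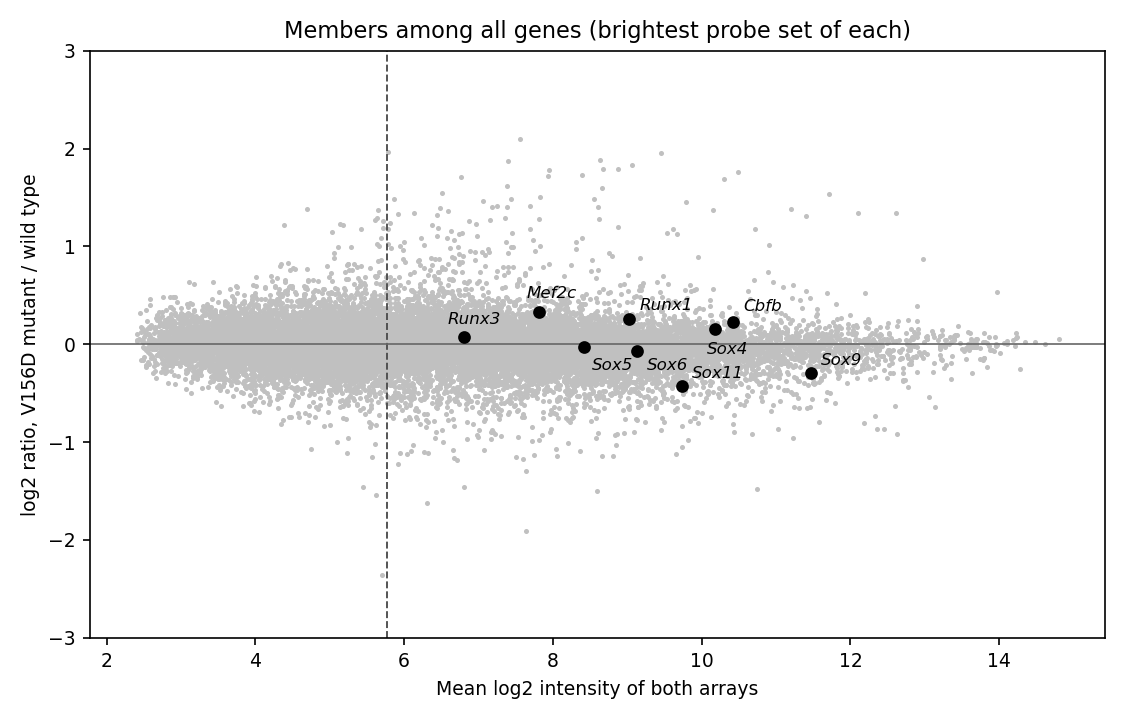
Log2 ratio of V156D mutant over wild type against the mean log2 intensity of both arrays for 18193 genes (grey) and the 9 measured members (black), each by its brightest probe set. All 9 lie right of the signal floor (dashed line) and within the cloud, between -0.43 for Sox11 and 0.33 for Mef2c.

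Sox9, the factor on which chondrocyte identity rests, was lower in the mutant array by each of its probe sets. Its brightest, 1451538_at, had 2555 in the mutant and 3134 in wild type, a log2 ratio of -0.29 or 1.23-fold lower. The next, 1424950_at, had 1613 in the mutant and 2268 in wild type, a log2 ratio of -0.49. The third, 1433889_at, was below the floor in both arrays, at 20.8 in the mutant and 21.6 in wild type. The bright probe sets thus gave 1 direction but differed in size, averaging -0.39 ± 0.14 on the log2 scale (SD of the 2 probe sets, which are not samples). Of 11329 genes, 1236, or 10.9%, had a log2 ratio as low as that of the brightest Sox9 probe set. Across the alternative settings the Sox9 value ran from -0.32 to -0.23.

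Sox6, a SOX9 partner that acts with Sox5, was lower by all 4 of its probe sets, all at or above the floor, although by little. The brightest, 1427677_a_at, had 547 in the mutant and 574 in wild type, a log2 ratio of -0.07 that became 0.00 after quantile normalization. Probe set 1434918_at had 410 in the mutant and 476 in wild type, and 1426018_a_at had 392 in the mutant and 446 in wild type. Probe set 1447655_x_at had 341 in the mutant and 423 in wild type, a log2 ratio of -0.31 and the lowest of the gene. The mean over the 4 was -0.20 ± 0.10 (SD over probe sets).

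Sox5, the other SOX9 partner, had no settled direction. Its brightest probe set, 1432189_a_at, had 339 in the mutant and 346 in wild type, a log2 ratio of -0.03 that was 0.02 after quantile normalization or the loess correction. Its 5 probe sets above the floor gave 3 lower and 2 higher ratios, from -0.21 for 1455535_at to 0.33 for 1432190_at. Probe set 1455535_at had 120 in the mutant and 138 in wild type, whereas 1432190_at had 131 in the mutant and 104 in wild type. Both probe sets of Sox5 below the floor were higher, with log2 ratios of 0.40 and 0.23 from intensities of 33.2 to 47.0. The SD over the 5 was 0.23, and 18.6% of the 786 genes with 4 or more probe sets at or above the floor disagreed as much or more.

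Sox11, of the group of progenitor SOX factors, had the lowest ratio of the members. Its brightest probe set, 1436790_a_at, had 733 in the mutant and 987 in wild type, a log2 ratio of -0.43 or 1.35-fold lower. Probe set 1453125_at had 268 in the mutant and 333 in wild type. Probe set 1429372_at had 74.3 in the mutant and 116 in wild type, a log2 ratio of -0.65, and was the member probe set that passed 1.5-fold. Every one of the 5 Sox11 probe sets that reached the floor was lower, but 2 of them lay near 0. These were 1453002_at, with 111 in the mutant and 119 in wild type, and 1429051_s_at, with 155 in the mutant and 159 in wild type. The sixth, 1431225_at, was higher, with 54.3 in the mutant and 47.0 in wild type, both under the floor. Of 11329 genes, 537, or 4.74%, had a log2 ratio as low as that of the brightest Sox11 probe set, and the mean over all 6 probe sets was -0.22 ± 0.31 (SD over probe sets).

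Sox4, which belongs to the same SOX group as Sox11, had its bright probe sets slightly above 0. The brightest, 1433575_at, had 1225 in the mutant and 1101 in wild type, a log2 ratio of 0.15. Probe set 1419155_a_at had 216 in the mutant and 199 in wild type, and 1419156_at had 205 in the mutant and 190 in wild type. The fourth at or above the floor, 1449370_at, was on the other side, with 68.2 in the mutant and 72.2 in wild type. The remaining 4 were below the floor and divided evenly in sign, with 1419157_at the highest at a log2 ratio of 0.42 from 42.8 in the mutant and 31.9 in wild type. The mean over the 8 probe sets was 0.08 ± 0.18 (SD over probe sets), so the 2 progenitor SOX genes differed in sign, and whether that gap exceeds the spread between animals was not tested.

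**Figure D3:**
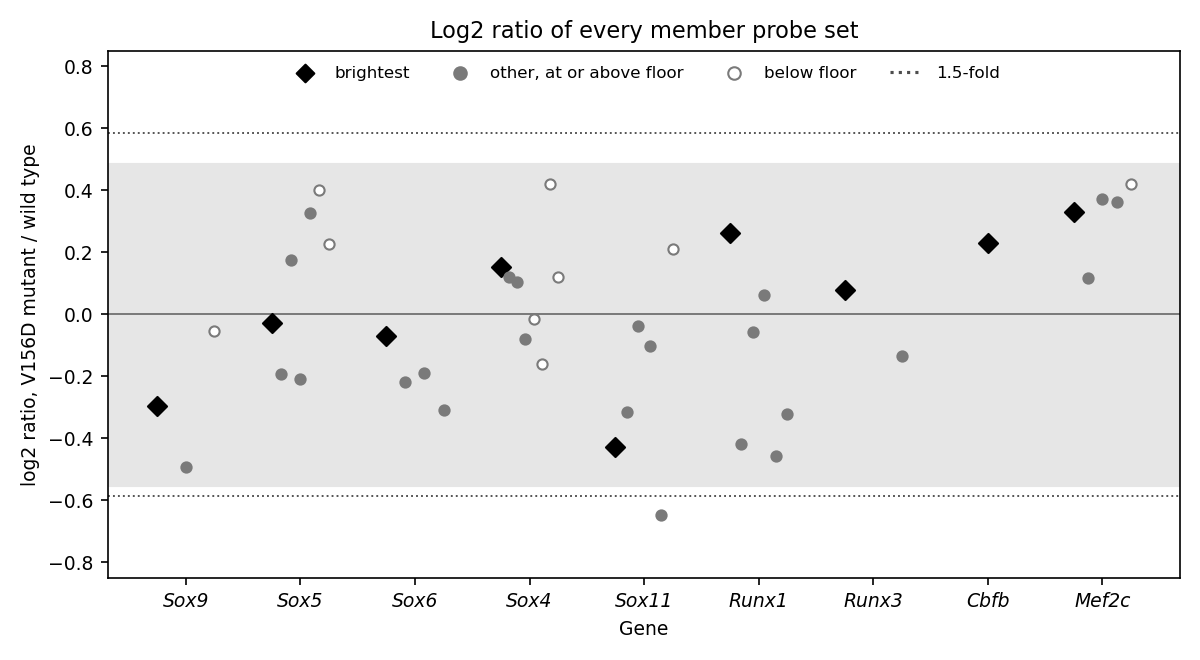
Log2 ratio of V156D mutant over wild type for every member probe set, with the brightest of each gene as a diamond, other probe sets at or above the floor in grey and those below it open. The grey band holds the central 95% of genes at or above the floor, -0.55 to 0.49, and 1 Sox11 probe set at -0.65 lies beyond the 1.5-fold line, while Runx1 and Sox5 probe sets fall on both sides of 0.

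Runx1 was the member whose probe sets disagreed most, counting those at or above the floor, and its direction was not settled. The brightest, 1452531_at, had 570 in the mutant and 476 in wild type, a log2 ratio of 0.26. Probe set 1422864_at had 283 in the mutant and 377 in wild type, and 1422865_at had 153 in the mutant and 210 in wild type, log2 ratios of -0.42 and -0.46. Probe set 1440878_at was lower as well, with 90.2 in the mutant and 113 in wild type. The other two were near 0: 1452530_a_at had 216 in the mutant and 207 in wild type, and 1427650_a_at had 271 in the mutant and 282 in wild type. All 6 reached the floor, 2 higher and 4 lower, with a mean of -0.16 ± 0.29 (SD over probe sets). An SD of that size or more was found in 9.29% of the 786 genes with 4 or more such probe sets. The RefSeq table lists 2 starts for Runx1, but which transcripts each probe set reads was not tested.

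Runx3, which acts with RUNX2 in chondrocyte enlargement, was dim and near 0. Probe set 1440275_at had 115 in the mutant and 109 in wild type, a log2 ratio of 0.08. Probe set 1421467_at had 67.6 in the mutant and 74.2 in wild type, a log2 ratio of -0.14. The signs differed, and the mean of the pair was -0.03 ± 0.15 (SD over probe sets).

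Cbfb, the partner that RUNX proteins have in common, was measured by a single probe set. It had 1483 in the mutant and 1265 in wild type, a log2 ratio of 0.23 or 1.17-fold higher. The name of this probe set, 1460716_a_at, marks it as shared by several transcripts, so no value remained when such probe sets were left out. Across the other settings the ratio was 0.21 to 0.31, and 10.4% of genes at or above the floor had a ratio as high.

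Mef2c, which drives hypertrophy together with RUNX factors and is also active in vessels and muscle, was higher by all 5 of its probe sets. The brightest, 1421027_a_at, had 253 in the mutant and 201 in wild type, a log2 ratio of 0.33 or 1.26-fold higher. Probe set 1424852_at had 117 in the mutant and 90.6 in wild type, and 1421028_a_at had 103 in the mutant and 80.4 in wild type. The smallest difference was that of 1451506_at, with 164 in the mutant and 151 in wild type, a log2 ratio of 0.12. The dimmest, 1451507_at, had 55.6 in the mutant and 41.6 in wild type, with its mean below the floor. The mean over the 5 was 0.32 ± 0.12 (SD over probe sets), and 606 of 11329 genes, or 5.35%, had a log2 ratio as high as that of the brightest.

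Some members had all their probe sets at or above the floor on 1 side of 0. The Sox11 probe set below the floor, at 0.21, is not counted here. Of the 6 members with 4 or more probe sets at or above the floor, 3 did with the deposited scaling, namely Sox6, Sox11 and Mef2c, although the brightest Sox6 probe set came to 0.00, on the higher side, after quantile normalization. Among all 786 genes with as many probe sets, 27.7% did so with the deposited scaling. Sox5, Sox4 and Runx1 had probe sets on both sides. Probe sets of 1 gene share the RNA pool, so their agreement measures probe error and not error between animals.

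The cartilage genes that SOX9, SOX5 and SOX6 bind and activate lay on both sides of 0. By brightest probe set some of them were as far from it as Sox9. All 24 listed genes were at or above the floor and none differed 1.5-fold. With the deposited scaling 15 had log2 ratios above 0 and 9 below, with a median of 0.04, against -0.02 over all genes. Centring each array on its median left 13 above 0, and the loess correction put 19 above. Acan, the main proteoglycan of cartilage, had 8564 in the mutant and 8223 in wild type. The highest were Susd5 and Col11a2, a chain of collagen XI, with log2 ratios of 0.30 and 0.15, Susd5 at 0.00 by its other probe set. The lowest were Ucma, a secreted protein of upper growth plate cartilage, and Col9a2, a chain of collagen IX, at -0.38 and -0.35. Ucma was at -0.19 as the mean over its 2 probe sets. Ucma had 5864 in the mutant and 7611 in wild type, and Col9a2 had 3852 in the mutant and 4897 in wild type.

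Genes of hypertrophic cartilage and bone under RUNX2, RUNX3 or MEF2C had no direction that held across scalings. Of 16 listed, 12 had a value and 7 were at or above the floor, 2 higher and 5 lower, with a median of -0.04. After quantile normalization or the loess correction 4 were higher and 3 lower, with medians of 0.04 and 0.02. Mmp13, the collagenase of hypertrophic cartilage, was the one that passed 1.5-fold, with 426 in the mutant and 726 in wild type, a log2 ratio of -0.77 from 1 probe set. Col10a1, the collagen that marks hypertrophic cells, had 4407 in the mutant and 4723 in wild type. Panx3, a channel gene, had a log2 ratio of -0.37, though its dimmer probe sets, both below the floor, gave 0.28 and 0.14. Alpl, the alkaline phosphatase of mineralising cells, had 79.9 in the mutant and 67.6 in wild type, and Sp7, the osteoblast factor osterix, had 88.0 in the mutant and 82.7 in wild type. Ihh, the hedgehog ligand of prehypertrophic cells, was below the floor, at 36.2 in the mutant and 44.1 in wild type.

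The other SOX genes lay on both sides of 0. Of 14 genes, 8 reached the floor, 4 of them higher and 4 lower, and 1 passed 1.5-fold. That gene was Sox7, of the vessel-forming F group, with 138 in the mutant and 75.0 in wild type, a log2 ratio of 0.88. Sox17, of the same group, had 94.6 in the mutant and 67.2 in wild type, a log2 ratio of 0.49, and Sox18, the third of that group, was below the floor with 60.3 in the mutant and 49.5 in wild type. Markers of endothelium ran the same way: of 8 with a value, 5 reached the floor, 4 of those with a higher signal in the mutant, and the summed intensity of the 8 was 944 in the mutant and 682 in wild type. Their part in the F group values was not tested.

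**Figure D4:**
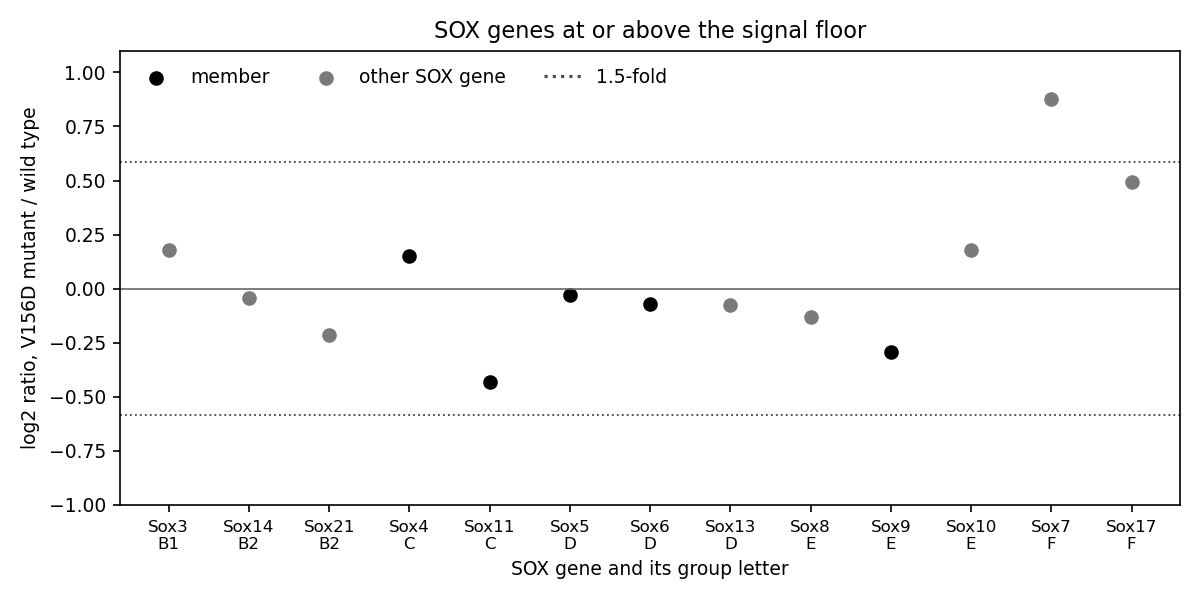
Log2 ratio of V156D mutant over wild type for the 13 SOX genes at or above the signal floor, each by its brightest probe set and ordered by group letter, with members in black. Sox7 at 0.88 lies beyond the 1.5-fold line and the other 12 lie inside it, from -0.43 for Sox11 to 0.49 for Sox17.

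The relatives of Sox9 and of its partners had small ratios by their brightest probe sets. Sox8 and Sox10, the other genes of the E group, had log2 ratios of -0.13 and 0.18, Sox8 from 227 in the mutant and 248 in wild type and Sox10 from 106 in the mutant and 93.7 in wild type. Sox13, the remaining gene of the D group of Sox5 and Sox6, had 91.7 in the mutant and 96.6 in wild type. In the B groups, Sox21 had a log2 ratio of -0.21 but -0.67 by its second probe set, below the floor, with 30.9 in the mutant and 49.2 in wild type. Sox14 had -0.04 and Sox3 had 0.18.

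Cofactors and upstream factors of SOX9 divided evenly. Of 11 that reached the floor, 5 had log2 ratios above 0 and 6 below, none passed 1.5-fold and the median was -0.01. After quantile normalization or the loess correction 6 were above 0 and 5 below. Bmp2, a growth factor that induces cartilage, had the lowest log2 ratio at -0.29, with 2059 in the mutant and 2511 in wild type. The homeobox gene Barx2 had -0.26. The highest by brightest probe set were Zfp219, a zinc finger partner of SOX9, at 0.21 and Pax9, a factor of the sclerotome, at 0.17. Pax9 had 73.2 in the mutant and 65.1 in wild type, and was at 0.02 as the mean over its probe sets.

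Partners and inhibitors of RUNX proteins were mostly on the higher side in the mutant array. By brightest probe set all 17 reached the floor, 12 with log2 ratios above 0 and 5 below, and their median was 0.21. Of all genes that reached it, 44.8% had ratios above 0, and a difference from that share was not tested. After median centring 11 were higher, beside 40.6% of all genes. After quantile normalization or the loess correction 14 were, beside 51.5% and 51.0% of all genes. Twist1, which restrains RUNX2 through its Runt domain, was the one that passed 1.5-fold, with 103 in the mutant and 62.7 in wild type, a log2 ratio of 0.71 that was 0.51, short of 1.5-fold, with an offset of 32. Runx1t1, a corepressor, had 98.4 in the mutant and 69.5 in wild type, a log2 ratio of 0.50. Its mean over probe sets was 0.35. As means over probe sets, Cbfa2t2 was at 0.07 rather than 0.27, Smurf1 at 0.11 rather than 0.28 and Yap1 at 0.13 rather than 0.22. Tle3 turned from 0.07 to -0.01, while Tle4, Kat6a and Sin3a turned from below 0 to 0.07, 0.03 and 0.05. The median of this list was not taken with genes so averaged, and 0.21 holds for brightest probe sets only. The lowest were Twist2 at -0.26 and the Groucho family gene Tle5 at -0.11. Twist1 is also expressed by fibrous mesenchyme, and fibroblast and tendon markers were higher in the same array, as described next. Their part in this list was not tested.

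MEF2 genes and the class IIa deacetylases that bind them showed no common direction. Of 7, 4 were higher and 3 lower, with none past 1.5-fold and a median of 0.08. Hdac4, the deacetylase that holds back MEF2C and RUNX2 in growth plate cartilage, had the lowest log2 ratio by brightest probe set at -0.26, with 149 in the mutant and 179 in wild type, but -0.08 as the mean over its probe sets. Mef2a had 762 in the mutant and 898 in wild type, a log2 ratio of -0.24, or -0.17 as that mean. Mef2d had 0.21 by its brightest probe set but -0.18 as the mean over its 3 probe sets. Hdac7 had 0.17, or 0.09 as the mean over its probe sets, and Mef2b -0.14 from 1 probe set. Hdac9 turned from 0.17 to -0.04 as such a mean, so the division of 4 and 3 holds for brightest probe sets only.

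Markers of other cells and heat shock genes differed between the arrays. All 14 fibroblast, perichondrium and tendon markers reached the floor, and 12 had higher signals in the mutant (13 after quantile normalization), 6 of them at least 2-fold, from Thbs4, an adhesive protein of tendon, at a log2 ratio of 1.76 to the growth factor receptor gene Pdgfra at -0.10. Their summed intensity was 85661 in the mutant and 56110 in wild type, and none was at 0. Endothelial markers ran from Cdh5 at 1.39 to Egfl7 at -0.19, though the means over their probe sets were 0.75 for Cdh5 and 0.06 for Egfl7. All 10 heat shock genes were lower, from Hspa1b at -0.15 to Hspb8 at -1.14, with summed intensities of 79124 in the mutant and 103353 in wild type. Of 4 leukocyte markers that reached the floor 3 had ratios above 0, Csf1r the highest at 0.17 and Cd68 the lowest at -0.17, and after median centring, quantile normalization or the loess correction 2 were. Ptprc, which defines leukocytes, had 10.8 in the mutant and 11.1 in wild type, far below the floor. Both osteoblast markers that reached the floor, Alpl at 0.24 and Sp7 at 0.09, were higher. So were the 2 genes listed as Schwann cell markers that reached it, S100b at 0.21 and Erbb3 at 0.13. Erbb3 was at -0.06 as the mean over its probe sets. S100b had 3107 in the mutant and 2690 in wild type, and Erbb3 had 57.5 in the mutant and 52.5 in wild type. Whether S100b reads Schwann cells here was not tested. Alas2, the 1 erythroid marker that reached the floor, had 0.31. Below the floor were Hba-a1, with 22.6 in the mutant and 21.0 in wild type, and Slc4a1, with 37.0 in the mutant and 38.6 in wild type. Of 3 muscle markers that reached the floor 1 was higher by brightest probe set, Des at 0.45, with Acta1 lowest at -0.44. As means over probe sets, Des was at 0.16 and Ckm turned from -0.02 to 0.11. Sex-linked transcripts also differed, with Xist at 5006 in the mutant and 7755 in wild type and the Y-linked Eif2s3y at 490 in the mutant and 230 in wild type. In bulk RNA, fewer cells of a type and less RNA per cell cannot be told apart, and the part of these cell types, of handling or of sex in the values of Sox9, Sox11, Mef2c or the other members was not tested.

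**Figure D5:**
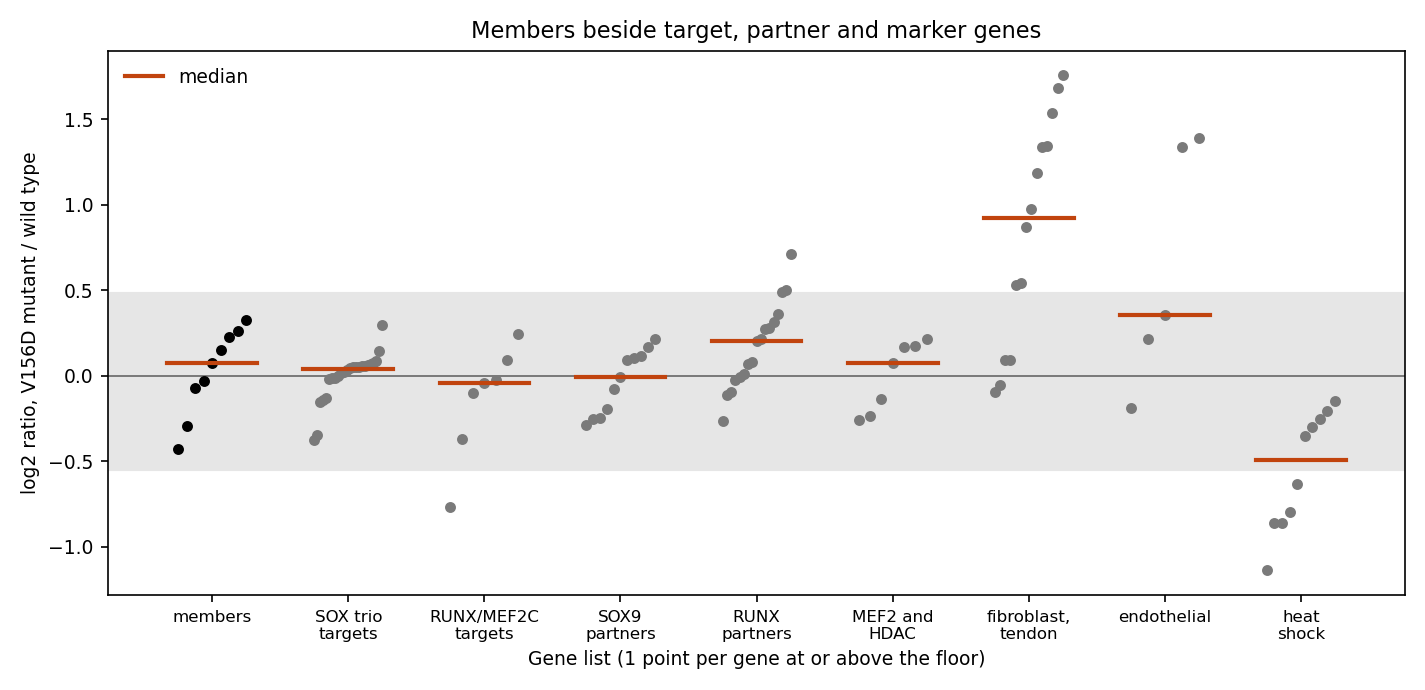
Log2 ratio of V156D mutant over wild type for the 9 members (black) and for genes at or above the floor of target, partner and marker lists (grey), with the median of each as a bar and the central 95% of all genes as a grey band. The members and target genes lie mostly within the band, the fibroblast and tendon markers have a median of 0.92 above it, and the heat shock genes have a median of -0.50.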

How the data were processed

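The table of 45037 probe sets and 2 arrays holds intensity values on a linear scale as deposited. MAS5 is named in the submitters' processing notes, with no settings given in the sources used here. The log2 of 100% of the values ends within 5 decimals (tolerance 0.05 of the last), as a summary made on the log2 scale would give, so the scaling and background steps are unknown, and small differences at low signal may be compressed.

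Gene symbols came from the GEO annotation of the array, and 34741 of 34945 with 1 symbol matched RefSeq GRCm38.p6 by Entrez identifier. Each gene took its brightest probe set by mean log2 signal. The floor was percentile 50 of that signal over all probe sets. Genes past 1.5-fold or 2-fold were counted, with no test, since each genotype has 1 array and the number of arrays limits the precision.

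Members and lists were chosen with earlier results of these data known. Of 161 list entries, 149 had a value. The genes named were all members, 5 fixed target genes and Matn1, the 2 highest and 2 lowest at or above the floor of each target or partner list, every other SOX and MEF2 gene at or above it, the highest and lowest of each marker list, and Xist and Eif2s3y. Sox18, Ptprc, Col1a2, Hba-a1, Slc4a1, Ckm, Hdac9 and the promoter sequences were chosen after their values were seen. So were the RUNX partners named only for their means over probe sets. No genes were named for a like pattern, since 2 arrays give 1 ratio per probe set. Settings tried were median centring, quantile normalization, loess correction (span 0.3), an offset of 32, probe set means, leaving out probe sets named _s_at, _x_at or _a_at, the floor at percentile 40 or 60, and no floor. Scripts were tested on simulated data. Python 3.11.15, numpy 2.4.6, pandas 2.3.3, statsmodels 0.14.6 and matplotlib 3.10.9 were used.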

Additional observations from a re-analysis of the deposited data

How the results depend on the processing

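The count of 0 members past 1.5-fold or 2-fold held under all 9 alternative settings. Those that changed only the floor leave each ratio as it was and could not raise that count. Values were compared with the SD of the difference between the 2 brightest probe sets of a gene, 0.26 on the log2 scale over 4878 genes, since no replicates exist. By that measure 1 of 80 member gene values moved: Runx1, from 0.26 by its brightest probe set to -0.16 as the mean over its probe sets. The 80 include values from the settings that changed only the floor, which could neither move nor turn in sign. In 6 of the 80 the sign differed from that first given. These were Runx1 and Runx3 (-0.03) as means over probe sets, Sox5 after quantile normalization (0.02), loess correction (0.02) or averaging (0.10), and Sox6 after quantile normalization (0.00). The sign of Sox9, Sox11, Sox4, Cbfb and Mef2c was the same under every setting that gave a value. Mef2c was smallest at 0.12 once probe sets named _s_at, _x_at or _a_at were dropped. Sox11 was smallest in size at -0.22 as the mean over its probe sets. The median of SOX target genes ran from 0.01 to 0.09, and that of RUNX and MEF2C target genes from -0.07 to 0.04. No scaling moved the median over genes at or above the floor by more than 0.03. At 1.5-fold, 193 genes were higher and 229 lower with the deposited scaling, 185 and 261 after median centring, and 211 and 207 after quantile normalization. No setting supplies the missing spread between animals.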

Other observations

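Across probe sets, some cofactors and SOX relatives agreed and others disagreed, which their brightest probe set alone does not show. They were picked after their values were seen. All 6 probe sets of Runx1t1 were higher in the mutant array, with log2 ratios from 0.14 to 0.54, although 4 of them were below the floor. Both probe sets of Zfp521, a zinc finger gene that restrains RUNX2, were higher, at 661 in the mutant and 471 in wild type and at 167 in the mutant and 135 in wild type. The second Sox17 probe set, below the floor, had 44.9 in the mutant and 16.6 in wild type, a log2 ratio of 1.43. Of the 6 probe sets of Mef2a, 4 were lower and 2 higher, and 1421252_a_at had 563 in the mutant and 989 in wild type, a log2 ratio of -0.81. The Mef2d probe set 1421388_at had 83.2 in the mutant and 147 in wild type, a log2 ratio of -0.83, while the other two of that gene were above 0. Sox6os, a separate transcript named for Sox6, was below the floor, with 31.3 in the mutant and 32.5 in wild type.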
